A study of Arabidopsis thaliana with 8 samples.

Results

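HEMA3, CHLM and SIRB stand at 3 points of the tetrapyrrole pathway, the plastid route that makes chlorophyll, heme and siroheme. They were chosen by name, as genes at its entry step, on its chlorophyll branch and on its siroheme branch that the array annotation pairs with a probe of their own. Their probes are 3 of the 692 that this annotation pairs with exactly 1 gene, which stand for 691 genes, among 3439 probes in all. The choice of genes, lists and tests was made with earlier results of these data known. The compared plants were wild-type Arabidopsis thaliana, ecotype Landsberg, with 4 samples taken after 48 h in red light and 4 after 48 h in white light, both at 20 µE. No mutation, transgene or chemical treatment is named for either group. The age of the plants, the tissue, the light before those 48 h and the array method are not stated in the labels, and neither is whether the samples were independently grown, so the p-values below describe the spread among these samples, part of which may be technical.

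In plants, tetrapyrroles are built in plastids from glutamate bound to its transfer RNA. Glutamyl-tRNA reductase, encoded by the HEMA genes, reduces it on the way to 5-aminolevulinate, the step at which supply to the whole pathway is controlled. A common trunk then leads to uroporphyrinogen III, where the siroheme branch leaves, and on to protoporphyrin IX, where iron insertion opens the heme branch and magnesium insertion the chlorophyll branch. CHLM is the methyltransferase that acts on magnesium protoporphyrin right after magnesium insertion. SIRB is the sirohydrochlorin ferrochelatase, which inserts iron in the last step to siroheme, the cofactor of nitrite reductase and sulfite reductase. Light is a known signal for HEMA1, the HEMA gene most used in green tissue, whereas HEMA3 is a lesser known member of that family.

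HEMA3 rose 2.76-fold in red light, SIRB fell by 0.84 on the log2 scale, and CHLM had a log2 fold change of -0.18 that did not pass the test. These fold changes are red minus white on quantile-normalized log2 intensities, fitted over all probes with limma, and a probe was called at an adjusted p under 0.05. By that rule limma called 22.0% of the 3032 probes tested, 11.0% as higher and 10.9% as lower in red light, and 23.9% of the tested probes of 1 gene, so a call by itself is common on these arrays. In RNA from whole samples, fewer cells of a type and less RNA per cell cannot be told apart. All values below are in the arbitrary intensity units of the deposited table unless another scale is named.

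HEMA3 (AT2G31250), the entry step gene, had intensities of 0.659, 0.531, 1.38 and 1.29 in red samples 1 to 4, against 0.280, 0.171, 0.421 and 0.572 in white samples 1 to 4. Red samples 3 and 4 were the highest of the 8 and white sample 2 was the lowest. Red sample 2 lay below white sample 4, so the groups overlapped by that 1 sample on the deposited scale, while after normalization they did not overlap, as was true of 29.2% of all tested probes, 14.4% with red higher and 14.8% with red lower. The means were 0.966 ± 0.433 in red light, against 0.361 ± 0.174 in white light (SD, n = 4 each). Between samples of the same number the red value was higher in 4 of 4, with red over white ratios of 2.26 to 3.28. The fitted log2 fold change was 1.46 ± 0.37 (SE; 95% interval 0.62 to 2.31; limma adjusted p = 0.0243), which corresponds to 1.53-fold to 4.95-fold.

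CHLM (AT4G25080), the methyltransferase of the chlorophyll branch, had intensities of 0.275, 0.241, 0.434 and 0.344 in red samples 1 to 4, against 0.307, 0.224, 0.587 and 0.512 in white samples 1 to 4. White samples 3 and 4 were the highest of the 8 and white sample 2 the lowest, with white sample 1 among the red samples, so the groups overlapped. The means were 0.324 ± 0.0852 in red light, against 0.408 ± 0.170 in white light (SD, n = 4 each). The fitted log2 fold change was -0.18 ± 0.28 (SE; limma adjusted p = 0.681). Its 95% interval ran from -0.81 to 0.45, or from 0.571 to 1.37 times the level in white light, if the 8 samples are independent. With resembling samples fitted as a random block, as described below, it ran from 0.437 to 1.78 times.

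SIRB (AT1G50170), the ferrochelatase of the siroheme branch, had intensities of 0.145, 0.205, 0.206 and 0.194 in red samples 1 to 4, against 0.340, 0.416, 0.324 and 0.396 in white samples 1 to 4. Every red sample lay below every white sample, on the deposited scale, where this held for 18.7% of the probes, and after normalization. The means were 0.187 ± 0.0289 in red light, against 0.369 ± 0.0438 in white light (SD, n = 4 each). Red over white ratios at the same number were 0.426, 0.493, 0.634 and 0.491. The fitted log2 fold change was -0.84 ± 0.24 (SE; 95% interval -1.38 to -0.31; limma adjusted p = 0.0334).

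**Figure D1:**
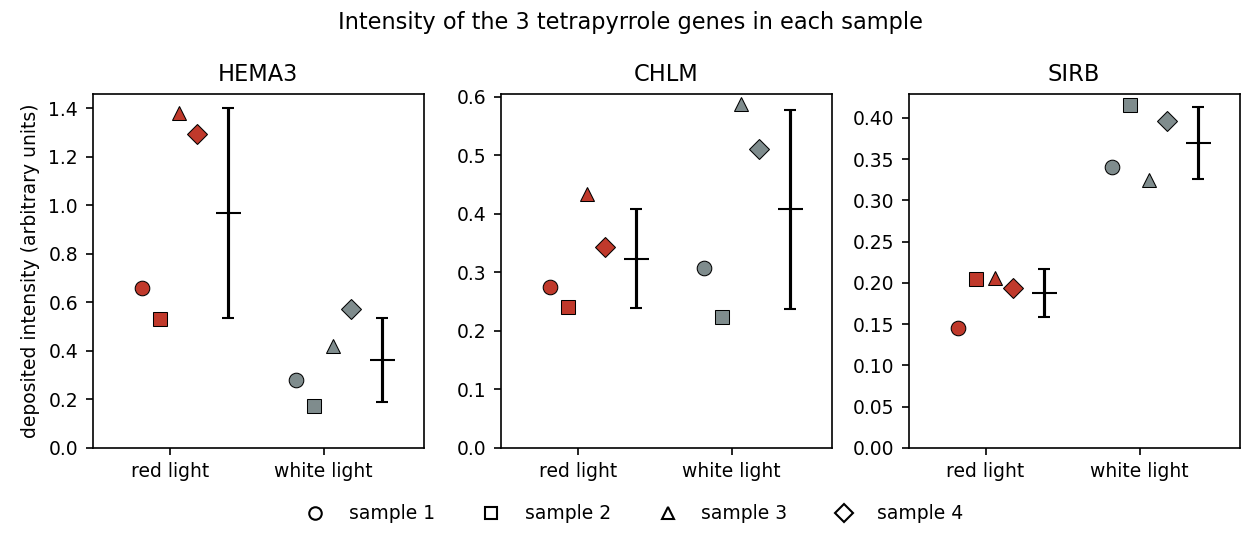
Deposited intensity in arbitrary units (vertical axis, from 0, with its own range in each panel) of HEMA3, CHLM and SIRB in each red and each white light sample; marker shapes give the sample number and the bars the mean ± SD of 4 samples. The red samples of SIRB, at 0.145 to 0.206, all lie under the white ones, at 0.324 to 0.416, while the CHLM groups overlap and red sample 2 of HEMA3 (0.531) lies under white sample 4 (0.572).

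Samples 1 and 2 of a group resembled each other, as did samples 3 and 4, with Spearman correlations across probes of 0.910 to 0.947 within these pairs and 0.777 to 0.825 between them. HEMA3 was one of the probes that shifted between the pairs. Its mean intensity in samples 3 and 4 was 2.24 times that in samples 1 and 2 in red light and 2.20 times in white light. CHLM had ratios of 1.51 for red light and 2.07 for white light, and SIRB had 1.14 for red light and 0.952 for white light. The median over 2038 probes above the floor and below the ceiling on all arrays was 1.24 for red light and 1.30 for white light. On the deposited scale SIRB thus kept nearly the same intensity in both pairs, while HEMA3 shifted by more than the median probe in each light. After normalization SIRB in white light had a mean log2 intensity of -1.15 in samples 1 and 2 and of -1.66 in samples 3 and 4. In red light these SIRB means were -2.22 and -2.29.

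The light difference was therefore also taken within each pair of samples. In samples 1 and 2 HEMA3 averaged 0.595 in red light, against 0.225 in white light, and in samples 3 and 4 it averaged 1.34 in red light, against 0.497 in white light. The deposited red over white ratio of these HEMA3 means was 2.64 in the first set and 2.69 in the second. SIRB averaged 0.175 in red light, against 0.378 in white light, in samples 1 and 2, and 0.200 in red light, against 0.360 in white light, in samples 3 and 4. After normalization the log2 fold changes in the first and second set were 1.62 and 1.31 for HEMA3 and -1.07 and -0.62 for SIRB. The deposited red over white ratio of the CHLM means was 0.971 in the first set and 0.708 in the second. After normalization CHLM had a log2 fold change of 0.12 for samples 1 and 2 but of -0.48 for samples 3 and 4, so its direction differed between the sets on that scale alone, and the difference was not tested. Over all probes, limma estimated a correlation of 0.75 within the resembling pairs after fitting light. To the extent that these samples are not independent, the p-values above are too small and the intervals too narrow. Fitting each pair as a random block in limma gave HEMA3 an adjusted p of 0.249 and SIRB one of 0.322. The 95% interval of the log2 fold change in that fit was 0.07 to 2.85 for HEMA3, -1.19 to 0.84 for CHLM and -1.79 to 0.10 for SIRB. Averaging each pair to 1 value gave a limma adjusted p of 0.292 for HEMA3 and 0.412 for SIRB. Both fits took the pairs of each light as separate units, so a shift between pairs that both lights shared stayed in the error. Neither call held in these fits, in which limma called 3.76% of the 3032 probes with the random block and 0 with averaged pairs (458 at an unadjusted p under 0.05).

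Leaving out single samples also touched both calls. HEMA3 did not pass without red sample 1, 3 or 4 or without white sample 1, with limma adjusted p from 0.0505 to 0.0673, and its log2 fold change stayed between 1.14 and 1.69 over the 8 omissions. SIRB did not pass without red sample 1, 3 or 4 or without white sample 1 or 2, with adjusted p from 0.0645 to 0.0794, and its log2 fold change stayed between -0.98 and -0.69.

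Whether the 3 genes changed unequally, which need not hold for whole steps of the pathway, was asked with the ratio of 2 probes within a sample. A factor common to all probes of an array cancels in this ratio, but a difference between arrays that varies with intensity does not. Only the change of such a ratio between the lights has a meaning, because different probes have different brightness. The 3 pairs of genes were each compared by an exact two-sided permutation test over the 70 splits of 8 samples into 4 and 4, whose smallest possible p is 0.0286, with Benjamini-Hochberg adjustment over the 3 pairs. This test treats the 8 samples as independent, and if resembling samples counted once, no p under 0.333 could be had. How often the ratios of other probe pairs do not overlap is not given here, while 29.2% of single probes did not overlap after normalization.

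HEMA3 rose against CHLM. The log2 ratio of HEMA3 over CHLM was 1.26, 1.14, 1.67 and 1.91 in red samples 1 to 4, against -0.14, -0.39, -0.48 and 0.16 in white samples 1 to 4. The groups did not overlap, and the mean was 1.49 ± 0.36 in red light, against -0.21 ± 0.29 in white light (SD, n = 4 each). The difference was 1.71, or 3.26-fold, and positive at 4 of 4 sample numbers (exact p = 0.0286, adjusted p = 0.0429). Samples 1 and 2 gave 1.46 and samples 3 and 4 gave 1.95.

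SIRB fell against HEMA3. The log2 ratio of SIRB over HEMA3 was -2.19, -1.37, -2.75 and -2.73 in red samples 1 to 4, against 0.28, 1.28, -0.38 and -0.53 in white samples 1 to 4. Again the groups did not overlap, with means of -2.26 ± 0.65 in red light, against 0.16 ± 0.82 in white light (SD, n = 4 each). The difference was -2.42, and it was negative at 4 of 4 sample numbers, where it lay between -2.65 and -2.20 (exact p = 0.0286, adjusted p = 0.0429). The same-numbered differences varied less than the ratios within either group, which in both lights were higher in samples 1 and 2 than in samples 3 and 4. This ratio comes from the same samples as the opposite calls of HEMA3 and SIRB, so it is not separate support for them.

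SIRB and CHLM were not shown to change unequally. The log2 ratio of SIRB over CHLM was -0.93, -0.23, -1.08 and -0.82 in red samples 1 to 4, against 0.15, 0.89, -0.86 and -0.37 in white samples 1 to 4. The groups overlapped, and the difference of the means, -0.72, did not pass (exact p = 0.171, adjusted p = 0.171), although the red ratio was the lower one at 4 of 4 sample numbers. Samples 1 and 2 gave -1.10 and samples 3 and 4 gave -0.34. Without white sample 2, which had the highest ratio, it was -0.41.

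**Figure D2:**
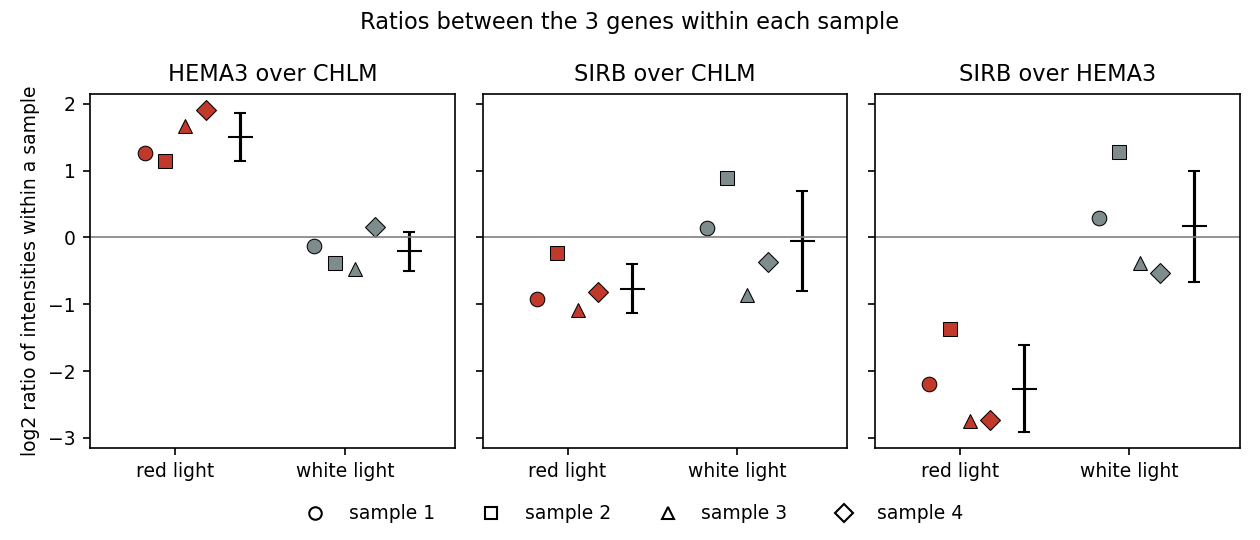
Log2 ratio of the deposited intensities of 2 genes within a sample (vertical axis, shared by the panels) in red and white light; marker shapes give the sample number and the bars the mean ± SD of 4 samples. Red and white samples are apart for HEMA3 over CHLM (differing by 1.71) and SIRB over HEMA3 (by -2.42) and overlap for SIRB over CHLM.

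Few other genes of the pathway could be read on these arrays. A list of 59 tetrapyrrole genes had 5 with a probe of their own, namely the 3 genes above, AT1G74470 and AT5G63290. A further 6 listed genes appear only on 4 probes shared by several genes, so no value is given for them. No gene listed for chlorophyll breakdown, for the heme and bilin branch or for the siroheme-using reductases had its own probe. For the entry step only HEMA3 had a probe, so HEMA1, HEMA2 and the other listed genes of that step were not measured. Of the 4 tested, 1 rose (HEMA3), 1 fell (SIRB) and 2 did not pass, beside the 22.0% of all tested probes that were called. With resembling samples as a random block none of the 4 passed (limma adjusted p = 0.249 for HEMA3 and 0.322 for SIRB). AT5G63290, placed in the list with the common trunk, was listed at 0 on all 8 arrays and was not tested.

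AT1G74470, the geranylgeranyl reductase that makes the phytyl tail of chlorophyll, is the other gene of the chlorophyll branch with its own probe. It had intensities of 4.01, 2.95, 4.94 and 4.65 in red samples 1 to 4, against 2.04, 1.60, 2.75 and 2.37 in white samples 1 to 4. On the deposited scale the groups did not overlap, as held with red higher for 11.6% of the probes there, and red over white ratios at the same number were 1.97, 1.84, 1.80 and 1.96. After quantile normalization its log2 fold change was 0.31 ± 0.20 (SE, limma adjusted p = 0.290) and the groups overlapped, so its call turned on the scaling: the deposited values gave 0.92 (limma adjusted p = 0.0282) and arrays centred on their medians gave 1.12 (adjusted p = 0.00525). Neither call of HEMA3 or SIRB depended on this choice. From the deposited values HEMA3 had a log2 fold change of 1.44 (limma adjusted p = 0.0494) and SIRB one of -0.98 (adjusted p = 0.00780). After centring on medians HEMA3 had 1.64 (limma adjusted p = 0.0123) and SIRB -0.79 (adjusted p = 0.0299).

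Ratios with AT1G74470 were also taken within samples. On the deposited scale the log2 ratio of AT1G74470 over CHLM was 3.51 to 3.87 in red samples and 2.21 to 2.84 in white samples. That is a difference of 1.18 with no overlap. After quantile normalization the red and white ratios overlapped, with log2 fold changes of 0.31 for AT1G74470 and -0.18 for CHLM. On the deposited scale the ratio of SIRB over AT1G74470 was -4.79 to -3.85 in red samples and -3.08 to -1.95 in white samples, also without overlap. That of HEMA3 over AT1G74470 was -2.61 to -1.84 in red samples and -3.22 to -2.05 in white samples, and these overlapped. These ratios were looked at after the values were seen and were not tested. How often the ratios of other probe pairs do not overlap was not counted. Of single probes on the deposited scale, 11.6% did not overlap with red higher and 18.7% with red lower.

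As a check of the sampled tissue, 15 genes of green tissue and 10 of other tissues or senescence were listed. Of the green genes 6 had a probe of their own and 5 were tested, and none of the other list had one, so the arrays do not speak on other tissues. The summed intensity of the green genes was 48.9 to 129.6 in red samples and 14.6 to 32.8 in white samples, a sum that PSBW, a photosystem II subunit, and LHB1B2, an antenna protein, make up for the most part. Its part in the changes of HEMA3 and SIRB was not tested. PSBW was called higher in red light (limma adjusted p = 0.0222), but 2 of its red samples lay at the ceiling of 100, so the size of that difference was not measured. Its call was lost with the random block (adjusted p = 0.10), with averaged pairs (0.299) and without red sample 3 or 4 or white sample 1, 2 or 4 (0.0508 to 0.0627). The other green genes did not pass, and their log2 fold changes followed the scaling. LHB1B2 had 0.53 after quantile normalization and 1.34 on the deposited scale, and PSBY, also of photosystem II, had 0.45 and 0.74 on these scales. PSAN of photosystem I had -0.50 after quantile normalization and 0.18 with median centring, and the Calvin cycle gene PRK had -0.14 and 0.21. Within samples 1 and 2 the normalized log2 fold change was 1.12 for LHB1B2 and -1.08 for PSAN, and within samples 3 and 4 it was -0.06 for LHB1B2 and 0.08 for PSAN. Without white sample 1 LHB1B2 had 0.16. SBPASE, another Calvin cycle gene, was listed at 0 on all arrays although green tissue uses it, so the pairing of probes with genes is taken on the annotation's word here.

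**Figure D3:**
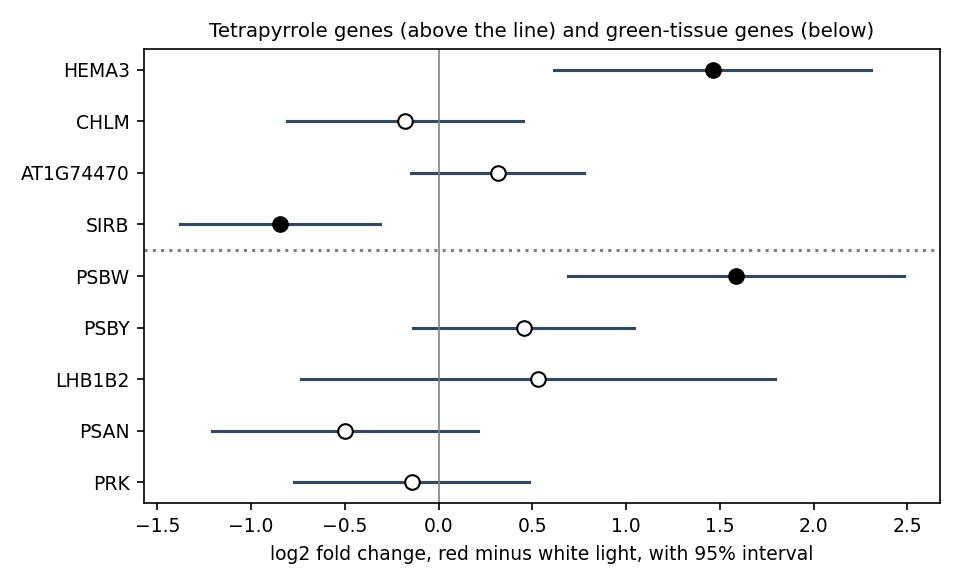
Log2 fold change, red minus white light, after quantile normalization (horizontal axis), with its 95% interval, for the 4 tested tetrapyrrole genes and the 5 tested green-tissue genes; filled points passed at a limma adjusted p under 0.05. HEMA3 (1.46) and SIRB (-0.84) lie on opposite sides of 0, and the intervals of CHLM and AT1G74470 include it. The point of PSBW holds 2 red samples at the ceiling, so its size was not measured.

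Summed intensity over all probes was 2549 to 3196 in red samples and 1691 to 2373 in white samples. With 4 arrays per light, precision is limited. None of the 3 genes reached the floor of 0.0716 that was set for low values on the normalized scale. Over the 8 arrays HEMA3 lay 2.19 to 15.3 times above that floor, CHLM 3.21 to 7.19 times and SIRB 2.58 to 7.18 times. The spread within groups, as the SD of log2 values, was 0.57 for HEMA3, 0.38 for CHLM and 0.29 for SIRB, beside a median of 0.47 over all tested probes. HEMA3 was thus the more variable of the called pair and SIRB the steadier one. Of all tested probes, 94.2% had a lower log2 fold change than HEMA3, 42.7% a lower one than CHLM and 16.7% a lower one than SIRB.

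The genes whose values over the 8 samples were most like each of these were found by the root mean square difference of mean-centred normalized log2 intensity, among 430 other single-gene probes above the floor on all arrays. Nearest to HEMA3 were AT4G29890 (a difference of 0.26), AT5G64150 (0.28) and AT3G09080 (0.33), where the median over all candidates was 1.04. Nearest to CHLM were AT1G74730 (0.21), AT3G57440 (0.22) and the MADS-box gene AGL103 (0.23), with a median of 0.62. Nearest to SIRB were AT3G55070 (0.10), AT2G05120 (0.14) and PRA1.B3 (0.15), a prenylated RAB acceptor gene, with a median of 0.66. This likeness uses the light difference as well as the spread within each light, so the log2 fold changes of the named genes resemble their member's by construction. They were 1.43 to 1.67 for those near HEMA3, -0.31 to 0.13 for those near CHLM and -0.97 to -0.76 for those near SIRB.

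**Figure D4:**
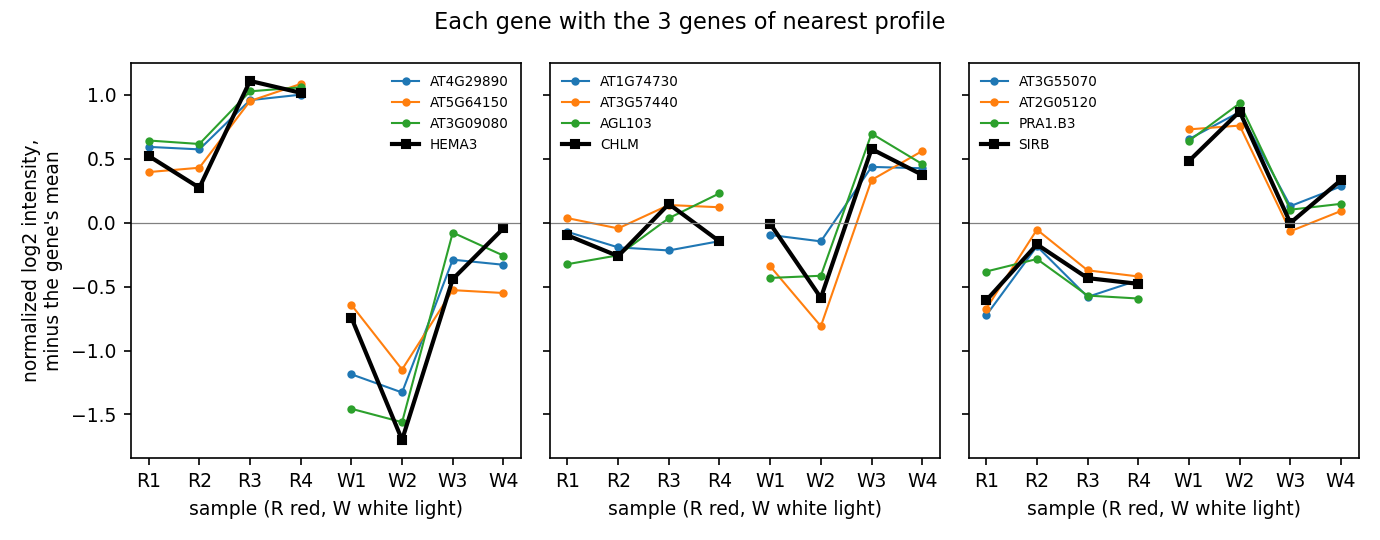
Normalized log2 intensity minus each gene's mean (vertical axis) in red samples R1 to R4 and white samples W1 to W4, for HEMA3, CHLM and SIRB (black) and the 3 genes nearest to each (colours); lines only join the points of 1 gene. In both lights HEMA3 is higher in samples 3 and 4 than in samples 1 and 2, and the 3 genes near SIRB follow it to within 0.10 to 0.15 (root mean square).

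**Figure D5:**
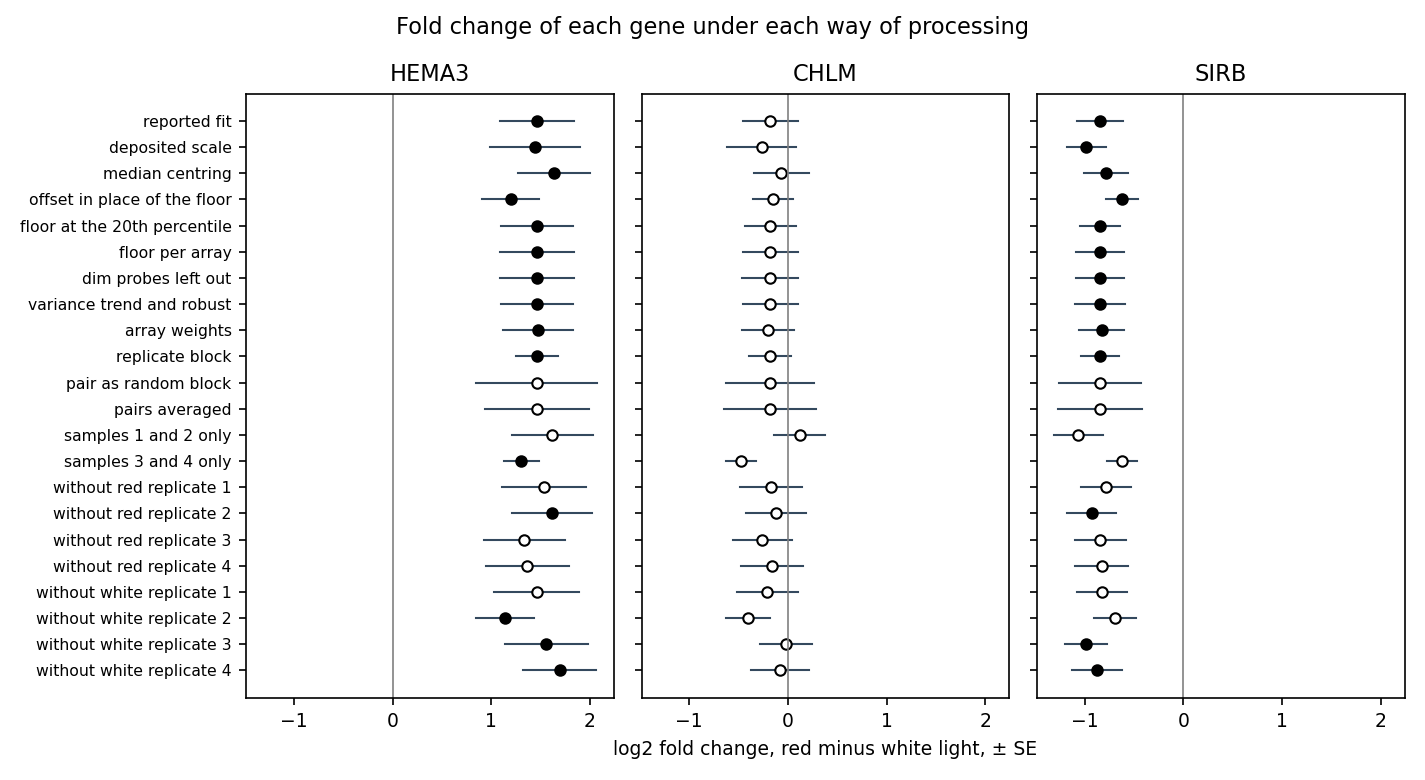
Log2 fold change, red minus white light, ± SE (horizontal axis, shared by the panels) of HEMA3, CHLM and SIRB under each way of processing (rows); filled points passed at a limma adjusted p under 0.05. HEMA3 stays between 1.14 and 1.69 and SIRB between -1.07 and -0.62 in all rows, while CHLM lies between -0.48 and 0.12.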

How the data were processed

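The deposited table holds 1 column of probe intensity per sample, on a linear scale from 0 to a ceiling of 100. How the authors corrected background and scaled these deposited intensity values is not stated in the labels. A genome build is not given in the sources used here, and no coordinates or sequences are printed. Genes were named from the platform annotation and, by gene ID, from the RefSeq gene names of TAIR10.1 (690 of 692 single-gene probes matched). The 870 probes of several genes and the 1877 of none were tested but not named.

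Arrays were quantile-normalized. Values below 0.0716, the highest of the arrays' 5th percentiles of positive values, were set to it, and 407 probes at this floor on all arrays were left out. Log2 values were fitted with limma 3.58.1 in R 4.3.3, two-sided, with Benjamini-Hochberg adjustment over the 3032 probes. Ratios between genes used deposited values with a floor of 0.0751. Figures used matplotlib 3.10.9, pandas 2.3.3 and Python 3.11.15.

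The genes, lists and tests were chosen with earlier results of these data known. The genes named are the 3 members, every listed tetrapyrrole and tissue gene with its own probe, and the 3 nearest profiles of each member.

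Same-numbered red and white samples deviated together from their group means (correlations across probes of 0.239 to 0.320, against -0.206 to 0.107 for different numbers), so the number was also fitted as a block. This pairing comes from the data, while the labels give only the number. In data simulated with independent samples for this comparison (3032 probes), the fit recovered 39 of 100 probes changed 2-fold and 77 of 100 changed 4-fold, and 3 of 119 calls were unchanged probes.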

Additional observations from a re-analysis of the deposited data

How the results depend on the processing

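The directions of HEMA3 and SIRB held under all 21 alternatives each. With another floor on the normalized scale, dim probes left out, a variance trend, a block or averaged pairs, the estimates did not move (1.46 and -0.84). Their direction was thus fixed in those alternatives. The number as replicate block changed neither call (788 probes called, limma adjusted p = 0.0102 for HEMA3 and 0.0304 for SIRB). That fit treats the numbers as independent, although samples 1 and 2, and samples 3 and 4, resembled each other in each light. HEMA3 lost its call with the pair as random block and with pairs averaged (both 1.46) and in samples 1 and 2 alone (1.62, limma adjusted p = 0.0617). The omissions named above also cost HEMA3 its call, and over all omissions its log2 fold change was 1.14 to 1.69. SIRB lost its call with the pair as random block and with pairs averaged (both -0.84). It also did so in samples 1 and 2 alone (-1.07, limma adjusted p = 0.0531) and in samples 3 and 4 alone (-0.62, limma adjusted p = 0.0634). The omissions named above for SIRB cost it the call as well, and over all omissions its log2 fold change was -0.98 to -0.69. CHLM turned positive in samples 1 and 2 alone (0.12, adjusted p = 0.754) and was -0.40 to -0.02 without single samples. The causes were not tested, except that fewer samples enter the fits on sets, omissions and averages.

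HEMA3 over CHLM (1.71) and SIRB over HEMA3 (-2.42) missed the threshold with the difference taken within numbers (replicate block, adjusted p = 0.125, the smallest sign-flip p) and with pairs averaged (adjusted p = 0.500), where no value can pass, and without white sample 2 (adjusted p = 0.0857). Over omissions they ran from 1.57 to 1.83 and from -2.72 to -2.05, and SIRB over CHLM from -0.99 to -0.41. With quantile-normalized values HEMA3 over CHLM was 1.64 and SIRB over HEMA3 -2.31 (exact permutation adjusted p = 0.0429 each), and SIRB over CHLM -0.66.

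Probes called numbered 1254 (868 higher, 386 lower) with a floor per array, 114 (71 and 43) with the pair as random block, 0 with pairs averaged (458 at an unadjusted p under 0.05 in limma), 1268 (632 and 636) in samples 1 and 2 alone and 1176 (567 and 609) in samples 3 and 4 alone, against 666 (334 and 332). Omissions gave 453 to 613 (239 to 293 higher, 214 to 320 lower). The balance of higher and lower was 294 and 467 on the deposited scale and 450 and 361 with median centring, and the median probe lay at -0.14 (log2) in the first of these and at 0.20 with a floor per array. Tetrapyrrole genes called higher numbered 2 with deposited values and when centred on medians (HEMA3 and AT1G74470) and with a floor per array (HEMA3 and AT5G63290, which is at 0 on all arrays, so that its difference is that of the floors), and 0 with the random block, with averages and in samples 1 and 2 alone; those called lower numbered 0 with the random block, with averages and in either set alone. Omissions gave 0 to 1 in each direction.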
